A study of Mus musculus with 18 samples.

Results

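Messenger RNA levels at 21 h and at 14 h of GATA1 activation were compared in G1E-ER4 cells, a mouse erythroid progenitor line. The 2 groups hold 3 arrays each, those titled for 21 h and for 14 h in estradiol, out of 18 arrays at 6 times (0, 3, 7, 14, 21 and 30 h). Across these arrays 18193 genes were measured by a probe set naming 1 gene, and the 12719 of them above a minimum level were tested.

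G1E cells derive from mouse embryonic stem cells in which Gata1 was disrupted, and the ER4 subline, a clone, carries GATA1 fused to the ligand-binding domain of an estrogen receptor, so that estradiol switches the factor on. Both groups therefore share the disrupted Gata1 gene, the GATA1 fusion and 20 nM estradiol, and differ in 7 h of further exposure. No arrays of untreated cells at matching hours enter the comparison, so time in culture, estradiol and GATA1 activity cannot be told apart. The study set out to follow gene expression as such cells mature. Its labels call the 3 arrays of a time biological replicates without saying that they came from separate cultures, so each p-value measures only the spread between these samples, which may be technical.

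GATA1 is the transcription factor that drives red cell maturation. It switches on globin, heme synthesis and membrane genes and, with its cofactor FOG1, shuts off the progenitor genes Gata2, Kit and Myc. Late in maturation a red cell precursor stops dividing, stops making ribosomes, and clears its organelles by autophagy and the ubiquitin system.

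Values are log2 expression values, so a difference of 1 is a 2-fold change. At 21 h, 1992 genes (15.7% of those tested) were higher than at 14 h and 2230 (17.5%) were lower, at an adjusted p under 0.05 in limma with Benjamini-Hochberg adjustment over all 12719 genes. A change of at least 2-fold was less common upward than downward: 45 genes (0.354%) rose and 170 (1.34%) fell by that much. The median change of all genes was 0.03. In 5012 genes (39.4%) the 3 arrays of 1 time did not overlap the 3 of the other.

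**Figure D1:**
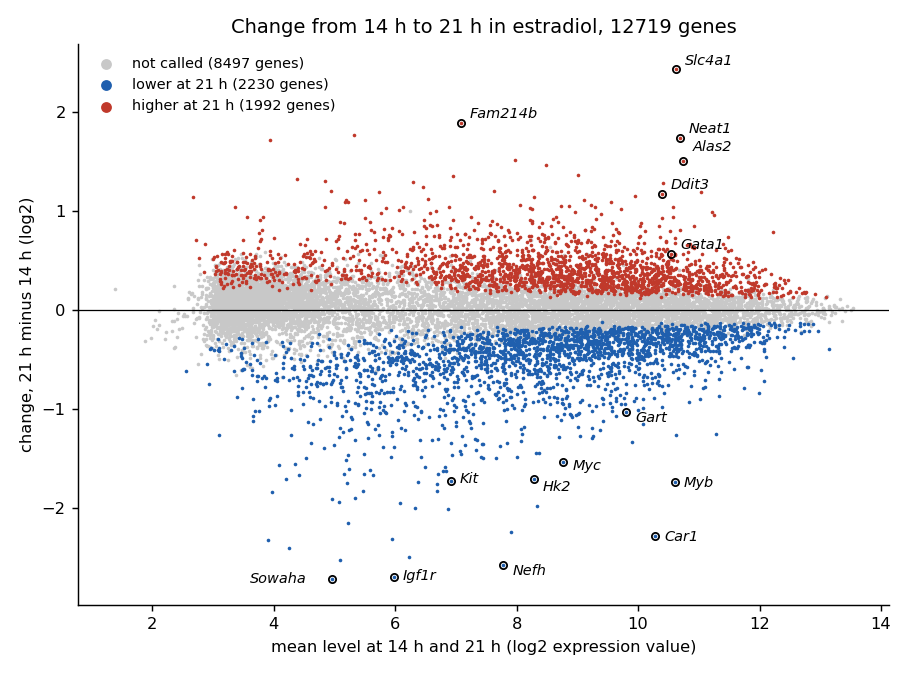
Change from 14 h to 21 h (vertical axis, log2) against the mean level at both times (horizontal axis, log2 expression value), 1 dot per gene; red dots were called higher (1992 genes), blue dots lower (2230) and grey dots neither. The largest changes lie on the falling side, where Sowaha, Igf1r and Nefh reached -2.72, -2.69 and -2.58, while Slc4a1 leads the rises at 2.43.

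These counts are relative to the middle of all genes, since the medians of the deposited arrays all lie between 4.04 and 4.09. The 18 probe sets for bacterial and phage RNAs added at hybridisation gave another yardstick. Their mean lay between 11.66 and 11.81 on the 14 h arrays and at 11.94, 12.20 and 11.66 on the 21 h arrays. With arrays shifted to equal control means, the median change of all genes was -0.18, 122 genes (0.959%) were higher and 1656 (13%) lower, and rises made up 6.86% of the calls in place of 47.2%. Smaller rises below are thus rises relative to other genes, and most lists are given with their counts under this scaling too. Those counts are to be read against 0.959% higher and 13% lower among all genes, and the main counts against 15.7% and 17.5%. With equal control means the median of 3 of the 41 lists stayed above 0: globin chains, autophagy and lysosome. When the fit held only the 6 arrays, 1068 genes were higher and 1398 lower, with 4 residual degrees of freedom in place of 12. The gap between 3' and 5' control probe sets, which widens when labelled RNA is shorter, was larger at 21 h on all arrays for Gapdh (1.19 at 14 h, 1.52 at 21 h), Tfrc (2.03 and 2.43) and 18S RNA (-0.06 and 0.63), each at the smallest exact permutation p that 3 against 3 arrays allow (two-sided, 0.1), while that of Actb (1.87 and 2.15) and Pcx (3.11 and 2.89) overlapped (exact permutation p = 0.2 each). Its part in the gene results was not tested.

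The erythroid identity of the cells was checked on 10 marker genes, of which 8 were measured. On all 6 arrays 7 of them lay above the array's 40th percentile (3.20 to 3.31), and their mean over the 8 measured genes lay between 9.69 and 9.71 at 14 h and between 10.19 and 10.28 at 21 h. The exception was the Hba-a1 probe set, at 2.24 and 2.15. Markers of other blood cells were low: the list mean on any of the 6 arrays was between 2.78 and 2.94 for mast cells and basophils, 2.65 and 2.92 for granulocytes and macrophages, and 2.66 and 2.88 for lymphoid cells. Megakaryocyte markers averaged 4.37 to 4.58 at 14 h and 4.07 to 4.16 at 21 h, with Pf4 (platelet factor 4) at -1.21 and Gp5 (a platelet glycoprotein) at -1.37 called lower, and Gp9 (0.21) and Itga2b (-0.11), subunits of platelet adhesion receptors, not called. In bulk RNA, fewer cells of a type and less RNA per cell cannot be told apart.

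The largest rise was in Slc4a1, which encodes band 3, the anion exchanger of the red cell membrane. Its arrays read 9.46, 9.35 and 9.40 at 14 h and 11.83, 11.79 and 11.88 at 21 h. All 21 h arrays lay more than 2 units above every 14 h array, and the change was 2.43 (SE 0.082, adjusted p = 2.49e-11), a 5.40-fold rise. A second probe set of the gene rose by 2.30, and a dim one, at 3.96 and 3.86, was not called. Alas2, the erythroid enzyme that begins heme synthesis, read 9.90, 9.97 and 10.11 at 14 h and 11.53, 11.53 and 11.45 at 21 h. Its groups were also far apart, with a change of 1.51 (SE 0.082, adjusted p = 5.39e-09). Neat1, the long noncoding RNA that scaffolds paraspeckles, read 9.71, 9.75 and 9.99 at 14 h and 11.81, 11.50 and 11.34 at 21 h, a change of 1.74 (SE 0.098, adjusted p = 8.3e-09). The 3 arrays at 21 h spread more widely for it than those at 14 h, and the groups did not overlap.

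The next largest rises took in genes of varied function. Fam214b went from 6.13 to 8.02 on average (change 1.90, SE 0.098, adjusted p = 4.6e-09) and Tbx6, a T-box transcription factor, from 4.43 to 6.20 (change 1.77, SE 0.29, adjusted p = 0.000206). Transport and metabolic genes among them were the riboflavin transporter Slc52a3 (1.52) and Fn3k (1.35), whose kinase removes sugars from glycated proteins such as hemoglobin. Dnajb2, a cochaperone of HSP70, rose by 1.37, the Rab regulators Evi5l and Rab3il1 by 1.47 and 1.30, and the butyrophilin gene Btn1a1 by 1.29. Apol11b rose by 1.21. Defb4, a defensin gene, rose by 1.71 from a dim 14 h level (3.23, 3.05 and 2.97, where the 40th percentile of an array is 3.20 to 3.31). Socs3 and the embryonic globin Hbb-y complete the 15 largest rises among genes with a standard symbol and are described with their groups. Placeholder symbols were skipped, such as D130037M23Rik, which rose by 1.24.

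**Figure D2:**
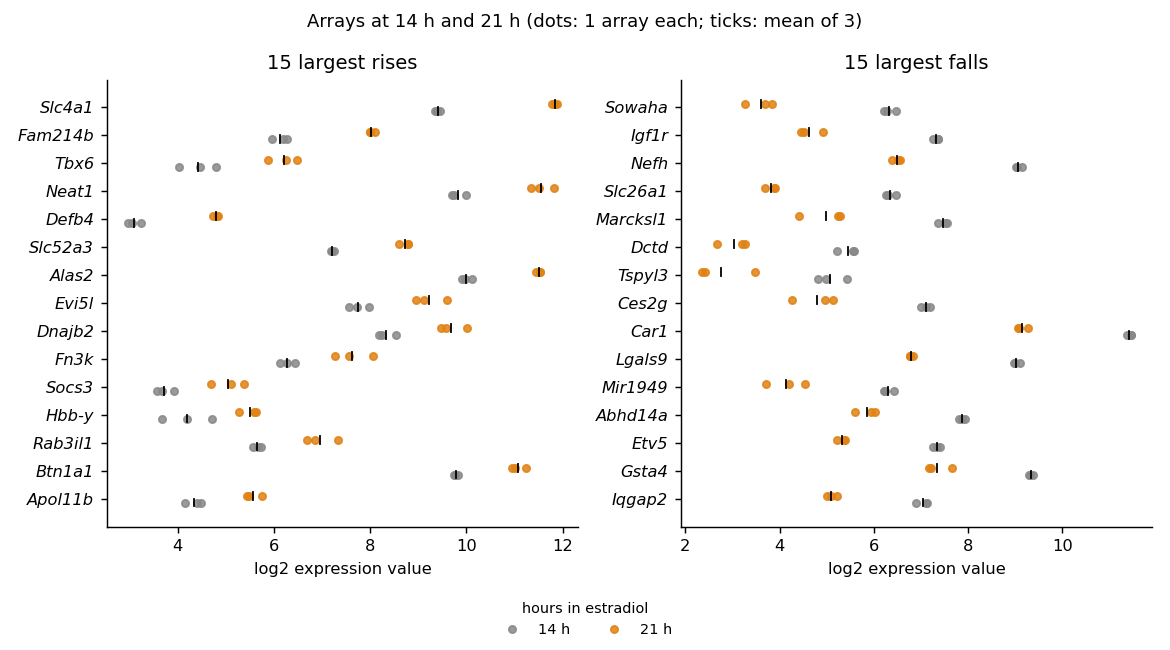
Log2 expression values (horizontal axis) of the 15 largest rises (left) and 15 largest falls (right) among genes with a standard symbol. Each dot is 1 array, grey for 14 h and orange for 21 h, with a tick at each mean of 3. By the rule that chose them, no gene's groups overlap; Slc4a1 moves from 9.40 to 11.83 and Igf1r from 7.33 to 4.63, while Hbb-y at 14 h and Tspyl3 at 21 h show the wide spread of dim genes.

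The largest falls began with Sowaha, an ankyrin repeat gene, whose arrays read 6.47, 6.21 and 6.28 at 14 h and 3.27, 3.84 and 3.68 at 21 h, a change of -2.72 (SE 0.18, adjusted p = 2.95e-08). Igf1r, the receptor of insulin-like growth factor 1, read 7.36, 7.25 and 7.36 at 14 h and 4.52, 4.93 and 4.45 at 21 h. Its groups were more than 2 units apart and the change was -2.69 (SE 0.14, adjusted p = 5.37e-09), but its 5 tested probe sets did not move alike: another fell by 2.34, one more changed by -0.47 and 2 dim ones were not called. Nefh, the heavy neurofilament subunit, read 9.14, 9.01 and 9.05 at 14 h and 6.51, 6.39 and 6.55 at 21 h, with little spread in either group (change -2.58, SE 0.065, adjusted p = 1.37e-12). Car1, carbonic anhydrase 1, was the brightest of these genes, at 11.46, 11.37 and 11.45 at 14 h and 9.07, 9.27 and 9.07 at 21 h (change -2.29, SE 0.066, adjusted p = 3.36e-12). Its 21 h arrays agreed within 0.2 units and lay far below those at 14 h. Lgals9, which encodes galectin 9, read 9.003, 8.97 and 9.11 at 14 h and 6.76, 6.83 and 6.76 at 21 h (change -2.24, SE 0.06, adjusted p = 1.64e-12).

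The other large falls took in genes of varied function. Slc26a1, a sulfate transporter, changed by -2.52, the actin-associated gene Marcksl1 by -2.50 and the scaffold gene Iqgap2 by -1.95. Dctd, the deaminase that makes dUMP for thymidylate synthesis, changed by -2.41. Ces2g, a carboxylesterase, changed by -2.32, Abhd14a by -2.02 and the glutathione transferase Gsta4 by -1.98. Tspyl3 changed by -2.32, to 3.48, 2.36 and 2.42 at 21 h. Dctd and Tspyl3 were at or near the arrays' 40th percentile at 21 h. A probe set annotated to the Mir1949 locus is also among the 15 and does not read a mature microRNA.

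The followed transcription factors moved in 2 directions. Gata1 read 10.17, 10.32 and 10.31 at 14 h and 11.02, 10.86 and 10.61 at 21 h, so the 21 h arrays were all higher though spread, and the change was 0.56 (SE 0.081, adjusted p = 7.68e-05). Whether that probe set reads the introduced fusion, the disrupted gene's RNA or both is not stated in the labels. Zfpm1, which encodes FOG1, changed by 0.43 (SE 0.092, adjusted p = 0.0021), but a dimmer probe set of it changed by 0.09 and was not called. Klf1, the erythroid factor that activates adult beta globin, changed by 0.17 (SE 0.051, adjusted p = 0.0161). Gata2 read 10.02, 9.89 and 10.15 at 14 h and 9.21, 9.29 and 9.16 at 21 h and fell by 0.80 (SE 0.062, adjusted p = 1.54e-07). Under hybridisation control scaling Gata1, Zfpm1 and Klf1 were not called (0.35, 0.21 and -0.04), while Gata2 was (-1.02).

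Of 28 erythroid transcription factors tested, 14 were higher and 7 lower, with a median change of 0.10 against 0.03 for all genes (0 and 3 called, median -0.12, under hybridisation control scaling). The small MAF partner Mafg of NF-E2 changed by 0.64 and the cell cycle factor E2f2 by 0.59, while Tcf3, the E-protein partner of TAL1, changed by -0.58. Progenitor transcription factors and receptors went the other way, with 1 higher and 9 lower of 20 tested and a median of -0.12 (0 and 8 under the control scaling). The receptor gene Kit read 7.72, 7.89 and 7.73 at 14 h and 6.21, 6.20 and 5.75 at 21 h. All its 21 h arrays were at least 1.5 units lower, a change of -1.72 (SE 0.13, adjusted p = 8.89e-08). Myb, the progenitor factor, read 11.49, 11.52 and 11.41 at 14 h and 9.72, 9.81 and 9.68 at 21 h (change -1.74, SE 0.069, adjusted p = 2.19e-10), and its other 2 probe sets changed by -2.89 and -2.64. Myc, the driver of cell growth, read 9.35, 9.60 and 9.65 at 14 h and 8.03, 8.34 and 7.62 at 21 h; the lowest 14 h array was 1 unit above the highest at 21 h (change -1.53, SE 0.15, adjusted p = 1.36e-06). Lyl1, a relative of TAL1, changed by -1.76 (SE 0.095, adjusted p = 5.37e-09).

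Growth factor signalling genes included some of the largest falls. None of 21 tested KIT and RAS pathway feedback genes was higher and 14 were lower, with a median of -0.54 (0 and 13 under hybridisation control scaling). Beside Igf1r, the ETS factor Etv5 read 7.33, 7.41 and 7.26 at 14 h and 5.22, 5.38 and 5.40 at 21 h (change -2.004, SE 0.078, adjusted p = 1.83e-10), and the Sprouty inhibitors Spry4 and Spry1 changed by -1.71 and -1.29. In the EPO receptor and STAT5 list 7 of 18 were higher and 4 lower, median 0.09 (2 and 3 under the control scaling). Socs3, a STAT-induced inhibitor of cytokine receptors, read 3.57, 3.92 and 3.68 at 14 h and 5.37, 5.10 and 4.68 at 21 h (change 1.33, SE 0.20, adjusted p = 9.86e-05). Its groups did not overlap, but 1 of its 3 probe sets changed by 0.10 and was not called, and the gene was not called without probe sets of the less specific _x_at and _s_at types. Csf2rb2, a cytokine receptor beta chain, changed by 0.79, the STAT5 target Cish by 0.71 and the phosphatase gene Ptpn6, which dampens the EPO receptor, by -1.06. Among BCL2 family and death receptor genes 4 of 19 were higher and 5 lower (0 and 5 under the control scaling), against 15.7% and 17.5% of all genes. The survival gene Bcl2l1, which encodes BCL-XL, changed by 0.54, Bid by -1.21 and Bcl2 by -1.84. Other Bcl2l1 probe sets changed by 0.21 and 0.08 and were not called. For Bcl2 only 1 of 4 probe sets was called, and at 21 h it read 2.86, 3.32 and 2.98, at or near the arrays' 40th percentile, so the size of its fall is uncertain; the same holds for Spry4 (3.27, 3.56 and 3.19 at 21 h).

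Embryonic hemoglobin genes rose. Of 5 globin chains tested 3 were higher and 1 lower. The gamma-like chain Hbb-bh1 read 8.49, 8.96 and 8.85 at 14 h and 9.88, 9.82 and 9.74 at 21 h (change 1.05, SE 0.13, adjusted p = 2.32e-05), Hba-x changed by 0.996 (SE 0.18, adjusted p = 0.000415) and Hbb-y by 1.30 (SE 0.35, adjusted p = 0.00916); another Hbb-y probe set was not called (0.50). Adult alpha globin, read by the Hba-a2 probe set, was at 10.70, 10.45 and 10.55 at 14 h and 10.002, 10.28 and 10.55 at 21 h. These groups overlap, with a change of -0.29 (SE 0.10, adjusted p = 0.0405) that was no longer called in 4 of the 6 fits leaving out 1 of these arrays. Adult beta globin, read as Hbb-b2, was not called (difference 0.13, adjusted p = 0.188). Near-identical globin genes may share probes, so these levels are uncertain as to which copy they read. The 3 embryonic chains kept their call under hybridisation control scaling, with 0 lower.

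Heme synthesis had 4 of 8 genes higher and none lower, median 0.16 (1 and 0 under hybridisation control scaling, median -0.05). Beside Alas2, these were Ppox (0.40), Fech (0.22), which inserts the iron, and Urod (0.13). Iron and heme transport was mixed, with 7 of 26 higher and 5 lower (0 and 2 under the control scaling), against 15.7% and 17.5% of all genes. Slc25a37, the mitochondrial iron importer mitoferrin 1, read 11.13, 11.30 and 10.93 at 14 h and 11.84, 11.90 and 11.83 at 21 h (change 0.74, SE 0.11, adjusted p = 7.6e-05), whereas the heme transporter Slc48a1 changed by -0.65 and transferrin receptor 2, Tfr2, by -0.45. In the red cell membrane and skeleton list 15 of 35 were higher and 4 lower, median 0.13 (3 and 5, median -0.08, under the control scaling). After Slc4a1 came the calcium pump Atp2b4 (0.97), the actin bundling protein dematin, Dmtn (0.94), and the beta spectrin gene Sptb (0.50), which the rule for named genes did not choose. The urea transporter Slc14a1 went from 5.98 to 5.06 (change -0.92, SE 0.24, adjusted p = 0.00714).

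Genes that supply nucleotides and ribosomes fell together. Of 28 purine and pyrimidine synthesis genes tested, none was higher and 25 were lower, against 17.5% lower among all genes, with a median of -0.58 (0 and 21 lower, median -0.80, under hybridisation control scaling). Gart, a trifunctional enzyme of purine synthesis, read 10.29, 10.24 and 10.44 at 14 h and 9.30, 9.31 and 9.27 at 21 h, nearly the same on all 21 h arrays (change -1.03, SE 0.073, adjusted p = 6.21e-08). Ppat, which commits ribose phosphate to purines, changed by -0.98 (SE 0.094, adjusted p = 1.48e-06), and another of its probe sets by -0.52. Atic, which completes the purine ring, read 10.14, 10.07 and 9.98 at 14 h and 9.03, 9.07 and 9.16 at 21 h (change -0.98, SE 0.058, adjusted p = 1.27e-08). For pyrimidines, Dhodh changed by -0.96 (SE 0.10, adjusted p = 4.96e-06). The 3 genes not called were Paics, Rrm1 and Rrm2, at 0.16, -0.04 and -0.03.

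Ribosome biogenesis factors numbered 108 tested, of which 79 were lower and 1 higher, median -0.39 (63 and 0, median -0.60, under hybridisation control scaling). Grwd1, a chaperone of ribosomal protein L3, read 10.08, 10.08 and 10.11 at 14 h and 9.14, 8.98 and 9.09 at 21 h (change -1.02, SE 0.051, adjusted p = 3.83e-09). Sdad1 changed by -0.99, Rrp1b by -0.93 and Nifk, a partner of the proliferation antigen Ki-67 in the nucleolus, by -0.93. Nucleolar genes outside the rule for named genes moved less: Fbl, the fibrillarin gene, changed by -0.57, Ncl (nucleolin) by -0.41 and Npm1 (nucleophosmin) by -0.28. RNA polymerase I had 4 of 15 genes lower and none higher (2 lower under the control scaling), led by Polr1a (-0.67) and Polr1e (-0.64). RNA polymerase III had 3 of 20 higher and 4 lower (0 and 3), near the 15.7% and 17.5% of all genes. Polr3gl, the alternative to the growth-linked subunit gene Polr3g, changed by 0.60 and Polr3e by -0.65.

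Genes of the cytosolic ribosome's own proteins moved little as a set. In the cytosolic set 4 of 42 were lower and none higher, with a median of -0.03, below the 17.5% lower among all genes. Rpl12 stood apart at 8.67, 8.83 and 8.68 at 14 h and 7.64, 7.43 and 7.33 at 21 h (change -1.26, SE 0.09, adjusted p = 7.25e-08), and Rpl14 and Rps25 changed by -0.53 and -0.45. Mitochondrial ribosomal proteins had 34 of 76 lower and none higher, median -0.19 (18 lower under hybridisation control scaling and 14 with only the 6 arrays), with Mrpl12 and Mrps6 at -0.84 and -0.81. Translation initiation and elongation factors had 2 of 43 higher and 14 lower (0 and 8), among them Eef1e1 (-0.90) and Eif1a (-0.58). Cytosolic tRNA synthetases had 2 of 22 higher and 3 lower (0 and 1), below the 15.7% and 17.5% of all genes. Aars changed by 0.52 and Kars by -0.53.

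Promoter sequence was read where genes moved together. RefSeq windows (GRCm38.p6) of the 250 bases before a transcript start were matched to 10221 of the 12719 genes. They were searched for CACGTG, the E-box that MYC and related factors bind, and on both strands for AGATAA and TGATAA, 2 forms of the site that GATA factors bind. CACGTG was in 8.07% of the 12925 windows of tested genes. It was in 6 of 75 windows (8.0%) of the lower ribosome biogenesis genes and in 5 of 29 (17.2%) of the lower purine and pyrimidine genes. These 29 windows belong to 23 genes, and Nme1 supplied more than 1 of the 5. CACGTG was in 1 of 29 windows (3.45%) of the lower mitochondrial ribosomal genes, in 4 of 40 (10%) of genes at least 2-fold higher and in 17 of 179 (9.50%) of genes at least 2-fold lower. A GATA form was in 9.92% of windows of tested genes, in 8 of 40 (20.0%) of genes at least 2-fold higher and in 20 of 179 (11.2%) of genes at least 2-fold lower. In the falling lists it was in 6 of 29 windows (20.7%) of purine and pyrimidine genes, 5 of 29 (17.2%) of mitochondrial ribosomal genes and 3 of 75 (4.0%) of ribosome biogenesis genes. A match describes the letters and is not a bound site. In each set shown, the gene with the largest change among those with a match is printed 5′ to 3′, with the motif in capitals: the GATA form lies 86 bases before the start of Alas2, the E-box 60 bases before that of Nop2, a nucleolar RNA methyltransferase gene that changed by -0.91, and 7 bases before that of Atic.
Alas2, chrX:150547167-150547416, plus strand: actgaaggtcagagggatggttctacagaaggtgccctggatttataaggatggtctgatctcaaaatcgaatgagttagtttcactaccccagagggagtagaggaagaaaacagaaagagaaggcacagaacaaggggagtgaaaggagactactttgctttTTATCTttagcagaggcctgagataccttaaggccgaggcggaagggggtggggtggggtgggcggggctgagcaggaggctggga
Nop2, chr6:125131633-125131882, plus strand: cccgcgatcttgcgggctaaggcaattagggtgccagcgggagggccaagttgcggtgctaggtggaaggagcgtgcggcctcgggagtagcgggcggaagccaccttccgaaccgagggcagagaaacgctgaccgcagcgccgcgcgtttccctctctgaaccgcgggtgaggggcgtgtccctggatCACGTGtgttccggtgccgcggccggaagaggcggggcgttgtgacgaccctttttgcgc
Atic, chr1:71556906-71557155, plus strand: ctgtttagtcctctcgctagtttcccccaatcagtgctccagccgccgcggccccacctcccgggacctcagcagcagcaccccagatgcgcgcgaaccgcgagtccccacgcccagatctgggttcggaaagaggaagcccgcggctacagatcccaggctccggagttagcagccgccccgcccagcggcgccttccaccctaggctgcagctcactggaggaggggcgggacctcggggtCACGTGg

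Cell division genes were listed by phase, and the difference between the lists was not tested. In the DNA replication and G1-S list 20 of 54 were lower and none higher, median -0.13, against 17.5% lower among all genes. Under hybridisation control scaling 7 of 54 were lower, near the share of all genes (13%), with a median of -0.35 against -0.18 for all genes. With only the 6 arrays 11 of 54 were lower, against 11.0% of all genes. Pold2, a subunit of DNA polymerase delta, read 8.92, 8.79 and 8.84 at 14 h and 8.06, 7.87 and 8.21 at 21 h (change -0.81, SE 0.085, adjusted p = 4.11e-06). Cdk2 changed by -0.51, E2f3 by -0.42 and Uhrf1, which guides maintenance DNA methylation, by -0.42. In the G2-M and mitosis list 17 of 58 were higher and 5 lower, median 0.09, against 15.7% and 17.5% of all genes; under the control scaling 0 were higher and 1 lower, with a median of -0.13, and with only the 6 arrays 5 were higher. The mitotic phosphatase gene Cdc25c read 8.72, 8.52 and 8.73 at 14 h and 9.48, 9.20 and 9.32 at 21 h (change 0.67, SE 0.083, adjusted p = 1.82e-05), the spindle gene Nusap1 changed by 0.41, the mitotic transcription factor Foxm1 by 0.41 and the kinase gene Pbk by -0.38. Among CDK inhibitors, G1 cyclins and kinases 7 of 20 were higher and 5 lower (2 and 4 under the control scaling): Cdk6 read 9.30, 9.09 and 9.24 at 14 h and 8.11, 8.18 and 8.12 at 21 h (change -1.07, SE 0.057, adjusted p = 5.37e-09), while the inhibitor gene Cdkn2d, which encodes p19, changed by 0.85, Cdkn3 by 0.85 and the arrest-linked cyclin gene Ccng2 by 0.68.

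**Figure D3:**
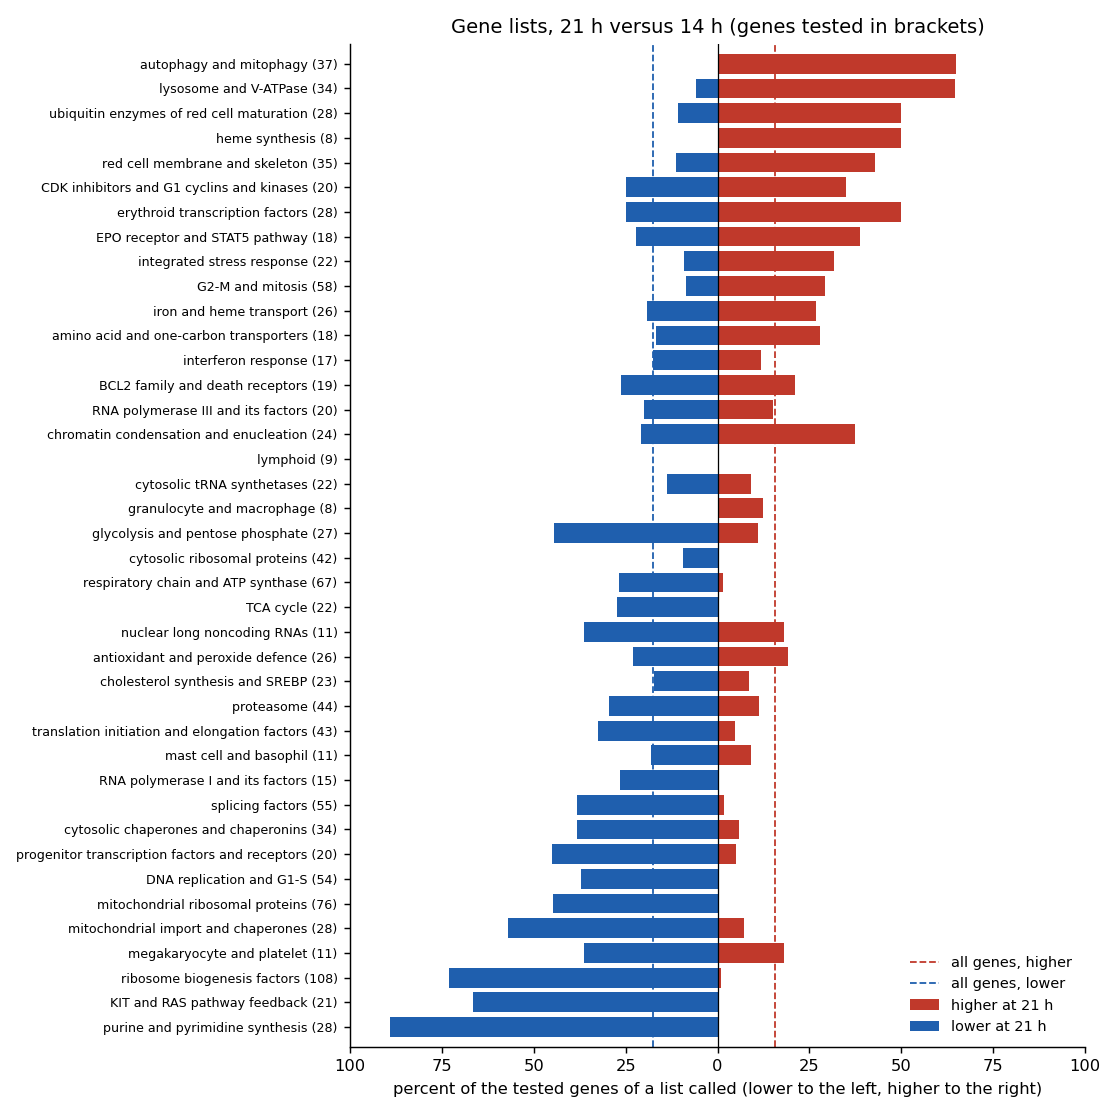
Share of the tested genes of each list with 8 or more called higher (red, to the right) or lower (blue, to the left) at 21 h, in percent, with lists ordered by median change and the number tested in brackets (the 5 globin chains are left out); dashed lines mark the shares among all genes, 15.7% and 17.5%. Purine and pyrimidine synthesis (25 of 28 lower) and ribosome biogenesis (79 of 108 lower) reach farthest left and autophagy (24 of 37 higher) farthest right; under hybridisation control scaling these counts were 21, 63 and 2.

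Glycolysis and the pentose phosphate pathway had 12 of 27 genes lower and 3 higher (10 and 0 under hybridisation control scaling). Hexokinase 2, Hk2, read 9.16, 9.22 and 9.01 at 14 h and 7.37, 7.495 and 7.41 at 21 h (change -1.71, SE 0.091, adjusted p = 5.37e-09). Its 21 h arrays agreed within 0.2 units. Ldha, lactate dehydrogenase A, changed by -0.84 (SE 0.05, adjusted p = 1.27e-08), Pkm, the pyruvate kinase gene, by -0.77 and Pdk1, which keeps pyruvate out of mitochondria, by -0.90. The TCA cycle had 6 of 22 lower and none higher (4 lower), against 17.5% and 15.7% of all genes, with Suclg2 at -1.06 and Idh3a at -0.74. Respiratory chain and ATP synthase genes had 18 of 67 lower and 1 higher, median -0.06 (3 and 0, and also 3 lower with only the 6 arrays), among them Atp5g2 at -0.63 and Uqcr11 at -0.60. Mitochondrial import and chaperones had 16 of 28 lower and 2 higher, median -0.19 (7 and 0), with the import channel Tomm40 at -0.93 and Hspd1, which encodes HSP60, at -0.79. Cytosolic chaperones had 13 of 34 lower and 2 higher (11 and 0), including Bag2 (-1.05) and the prefoldin subunit Pfdn2 (-0.90). Proteasome genes had 13 of 44 lower and 5 higher (6 and 0), against 17.5% and 15.7% of all genes. The immunoproteasome subunit Psmb10 changed by -1.04 and the activator Psme4 by 0.53.

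Genes of self-digestion rose as a group relative to other genes. Of 37 autophagy and mitophagy genes 24 were higher and none lower, median 0.29 against 0.03 for all genes (2 and 0, median 0.07, under hybridisation control scaling, where the median of all genes was -0.18). Atg9a, the membrane-spanning autophagy protein gene, read 8.81, 8.996 and 8.74 at 14 h and 9.87, 9.68 and 9.76 at 21 h (change 0.92, SE 0.08, adjusted p = 5.62e-07), all 21 h arrays being higher. Wipi1, which marks forming autophagosomes, changed by 0.88, Vps11 by 0.73 and Tecpr1 by 0.59. The other Wipi1 probe sets, all dimmer, rose by less (0.19 to 0.54), and not all were called. Lysosome and V-ATPase genes had 22 of 34 higher and 2 lower, median 0.27 (0 and 1, median 0.06): the proton pump subunits Atp6v0d1 and Atp6ap1 changed by 0.74 and 0.63, cathepsin A, Ctsa, by 0.71 and the calcium channel Mcoln1 by 0.69. Ubiquitin enzymes of red cell maturation had 14 of 28 higher and 3 lower, median 0.20 (0 and 1, median -0.01). Marchf8, a membrane ubiquitin ligase gene, changed by 0.69 and the E2 enzyme gene Ube2h by 0.62.

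The integrated stress response, in which the heme-sensing kinase HRI and its relatives slow translation, had 7 of 22 genes higher and 2 lower (5 and 2 under hybridisation control scaling). Ddit3, which encodes CHOP, read 10.02, 9.62 and 9.78 at 14 h and 10.76, 10.83 and 11.35 at 21 h (change 1.17, SE 0.12, adjusted p = 4.16e-06). A dimmer Ddit3 probe set changed by 0.39. Nupr1 changed by 1.06 (SE 0.10, adjusted p = 2e-06), the phosphatase subunit Ppp1r15a (GADD34) by 1.05 (SE 0.11, adjusted p = 3.12e-06) and the pseudokinase Trib3 by 1.03 (SE 0.11, adjusted p = 3.49e-06). The kinase gene Eif2ak1, HRI itself, changed by 0.43, the central factor Atf4 by -0.04 without a call, and the amino acid gene Asns by 0.12 without a call; these 3 were named after their values were seen. Transporters of amino acids and one-carbon units had 5 of 18 higher and 3 lower (0 and 3), with the reduced folate carrier Slc19a1 at -1.36 and the glycine transporter Slc6a9 at 0.66. Chromatin condensation and enucleation genes had 9 of 24 higher and 5 lower (1 and 3): the acetyltransferase gene Kat2a changed by -1.13 and the linker histone gene H1f2 by 0.80.

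Further lists covered RNA processing, metabolism and other blood cells. Splicing factors had 21 of 55 lower and 1 higher, median -0.11, against 17.5% and 15.7% of all genes, with Snrpf at -0.66. Under hybridisation control scaling 9 were lower, where 13% of all genes were, and none higher. With only the 6 arrays 8 were lower and none higher. Among nuclear long noncoding RNAs 2 of 11 were higher and 4 lower (1 and 4), Neat1 rising and the snoRNA host genes Snhg3 and Snhg5 changing by -1.02 and -0.77. Antioxidant genes had 5 of 26 higher and 6 lower, cholesterol synthesis 2 of 23 and 4, and interferon response 2 of 17 and 3, against 15.7% and 17.5% of all genes. Under the control scaling these lists had 0 higher and 3, 1 and 3 lower. Mast cell and basophil genes had 1 of 11 higher and 2 lower, granulocyte and macrophage genes 1 of 8 and 0, and lymphoid genes 0 of 9 called either way (1 higher with only the 6 arrays, after quantile normalization or with the replicate block). Of 11 megakaryocyte and platelet genes 2 were higher, Tubb1, a blood cell beta tubulin, at 0.88, and 4 were lower.

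The 7 h from 14 h to 21 h were also set against the 7 h before. The test was of the difference between both changes in the same fit, and the 14 h arrays enter both. For 404 genes (3.18%) the change after 14 h was more negative than the change before, and for 216 (1.7%) it was more positive. These counts rest on the 14 h arrays: without 14 h replicates 1, 2 and 3 they were 277, 241 and 80 more negative and 117, 141 and 47 more positive, without 21 h replicate 3 they were 647 and 387, and under hybridisation control scaling 244 and 1, where the median difference of all genes moved from 0.00 to -0.49.

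Falls deepened in some named genes, while the median difference of the progenitor and the KIT and RAS lists lay near that of all genes (0.00). Main counts in this comparison are to be read against 3.18% more negative and 1.7% more positive among all genes. Of 20 progenitor transcription factors and receptors 2 had a more negative change and 1 a more positive one (median difference 0.01). Of 21 KIT and RAS pathway feedback genes 4 had a more negative change and 1 a more positive one (median difference -0.03). Car1 changed by -0.87 from 7 h to 14 h and by -2.29 from 14 h to 21 h (difference -1.42, SE 0.11, adjusted p = 1.08e-05). Nefh changed by -1.12 and then -2.58 (difference -1.46, SE 0.11, adjusted p = 8.44e-06), Myb by -0.69 and then -1.74 (difference -1.05, SE 0.12, adjusted p = 0.000312) and Ldha by -0.19 and then -0.84 (difference -0.66, SE 0.087, adjusted p = 0.000967). Of the purine and pyrimidine genes 10 of 28 had a more negative change and none a more positive one, and of ribosome biogenesis factors 15 of 108 and none; without 14 h replicate 3 both counts were 3, and without 14 h replicate 2 the purine and pyrimidine count was 6. A more positive change was found for Fam214b, 0.66 and then 1.90 (difference 1.23, SE 0.17, adjusted p = 0.00134), Rab3il1, 0.15 and then 1.30 (difference 1.15, SE 0.24, adjusted p = 0.0146), Socs3, -0.09 and then 1.33 (difference 1.42, SE 0.34, adjusted p = 0.0277), and Gata1, 0.01 and then 0.56 (difference 0.55, SE 0.14, adjusted p = 0.0353). None of these 4 was called under hybridisation control scaling (differences 0.74, 0.66, 0.92 and 0.06). Without 14 h replicate 3 only Fam214b was called among them, without 14 h replicate 1 Socs3 and Gata1 were not, and Gata1 was also lost without 14 h replicate 2 or 21 h replicate 2. Without _x_at and _s_at probe sets Rab3il1 and Socs3 were not called. In the red cell membrane list 1 of 35 genes had a more positive change and 4 a more negative one. Some named genes rose less than before: Dmtn by 1.81 and then 0.94 (difference -0.87, SE 0.14, adjusted p = 0.00358), the embryonic globin Hba-x by 2.40 and then 0.996 (difference -1.40, SE 0.30, adjusted p = 0.0181), Tubb1 by 1.87 and then 0.88 (difference -0.99, SE 0.22, adjusted p = 0.0209) and the glutamine transporter Slc38a5 by 1.497 and then 0.70 (difference -0.80, SE 0.15, adjusted p = 0.00855). Hba-x lost the call without 14 h replicate 2 or 3, Tubb1 without any 1 of the 14 h replicates, and Dmtn with the mean of its probe sets. For Slc4a1 and Alas2 the difference did not pass the threshold (-0.49, SE 0.14, adjusted p = 0.0604, and -0.38, SE 0.14, adjusted p = 0.135).

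Some DNA replication genes reversed direction at 14 h. Of the 54 tested, 14 had a more negative change after 14 h and none a more positive one (9, 8 and 3 without 14 h replicates 1, 2 and 3; 3 under hybridisation control scaling). In 7 of them the level rose from 7 h to 14 h and fell from 14 h to 21 h with all 3 tests passed: Mcm7 (0.18 and then -0.27), a subunit of the replicative helicase, the clamp loader subunit gene Rfc5 (0.23 and then -0.22), the DNA polymerase epsilon subunit gene Pole2 (0.20 and then -0.30), Cdc45 (0.30 and then -0.22), Chaf1b (0.43 and then -0.28), which places histones behind the fork, Rpa2 (0.22 and then -0.32) and the licensing inhibitor gene Gmnn (0.25 and then -0.23). The difference between both changes was called without 14 h replicate 3 for Rpa2 alone of the 7, and under hybridisation control scaling for Chaf1b alone. Chaf1b and Cdc45 lost the call with the mean of their probe sets, and Mcm7 without _x_at and _s_at probe sets. Rfc5 and Gmnn lost it without a filter or without 14 h replicate 1, and Pole2 and Rfc5 without 14 h replicate 2. Over all tested genes 49 (0.385%) rose and then fell in this way, and 48 (0.377%) fell and then rose. The rule for named genes chose none of these 7, which were named for this pattern after their values were seen. Under hybridisation control scaling the change after 14 h was negative in all 7 (-0.54 to -0.43) and called in none. In the next 9 h the same genes changed by between -1.71 (Chaf1b) and -0.76 (Gmnn).

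**Figure D4:**
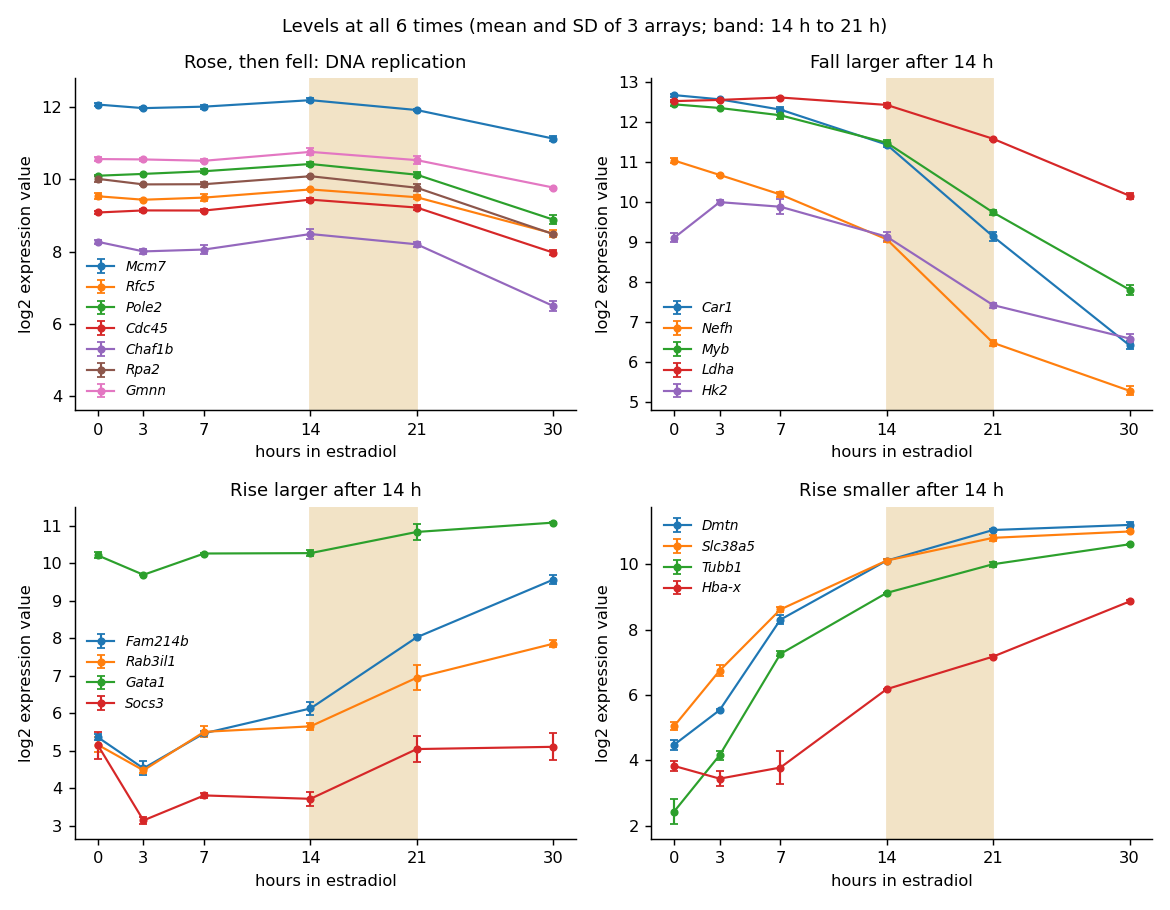
Mean log2 expression value (vertical axis) with SD of 3 arrays at each time (horizontal axis, hours in estradiol), 1 line per gene, with the interval from 14 h to 21 h shaded. The 7 DNA replication genes are highest at 14 h, though their fall to 21 h was not called under hybridisation control scaling; Car1, Nefh, Myb, Ldha and Hk2 fall further after 14 h than before; Fam214b, Rab3il1, Gata1 and Socs3 rise more after 14 h than before, a difference not called for these 4 under hybridisation control scaling, and Dmtn, Slc38a5, Tubb1 and Hba-x less.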

How the data were processed

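Total RNA from G1E-ER4 cells was extracted with Trizol, labelled with biotin and hybridised to Affymetrix arrays, per the labels' protocols. The authors deposited a log2 value for each of 45101 probe sets on each array. How probes were summarised, background-corrected and scaled is not stated in the labels. The log base was read from the range of the values (highest 14.37). Genes were named through the platform annotation: 34945 probe sets have 1 gene, 932 several and 9160 none, and 64 are controls. Only probe sets with 1 gene enter the gene counts. Each gene is represented by its probe set of highest average level across the 18 arrays, and a gene was tested if it exceeded the 40th percentile of 3 or more arrays.

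All 18 arrays were fitted in limma (version 3.58.1, R 4.3.3), giving each time its own mean with 12 residual degrees of freedom, and Benjamini-Hochberg adjustment over 12719 genes, two-sided; adjusted p-values in the text come from this fit, and the code was checked on simulated data. The number of arrays, n = 3 per group, limits the precision. Gene lists, 41 with 1215 tested genes, and the rule for named genes were chosen with earlier results of these data known. That rule took the 15 largest rises and 15 largest falls among genes called with groups that do not overlap, skipping placeholder symbols such as those ending in Rik. It also took the 4 most changed members per list and 8 followed genes. Other genes in the text were named after their values were seen. Alternatives, 19 in all, changed scaling, filter, choice of probe set, variance model, threshold and arrays. Promoter windows came from RefSeq GRCm38.p6.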

Additional observations from a re-analysis of the deposited data

Results flagged for a closer look

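Some genes changed in opposite directions before and after 14 h, with both changes and their difference past the threshold, a difference of at least 1 and a level of at least 8 at some time. Sfxn3, a mitochondrial serine transporter gene, fell by 0.91 from 7 h to 14 h and rose by 0.61 from 14 h to 21 h, a difference of 1.51. Septin4, of the septin cytoskeleton, rose by 0.40 and then changed by -1.02, a difference of -1.43. The prefoldin subunit gene Pfdn2 differed by -1.25, the small membrane protein gene Smim5 by -1.11 and the collagen gene Col18a1 by -1.01. The chloride channel gene Ano1 differed by -1.21, rising by 0.92 and then changing by -0.29. Under hybridisation control scaling the change after 14 h was not called for Sfxn3 (0.39) and Ano1 (-0.50), and was called for Septin4, Pfdn2, Smim5 and Col18a1. Septin4, Ano1 and Col18a1 are read by probe sets of the less specific _x_at and _s_at types.

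Probe sets kept out of the gene counts were tested too. Of 4526 with no gene in the annotation, 348 (7.69%) were higher and 424 (9.37%) lower at 21 h. These shares were smaller than the 15.7% and 17.5% of all genes. They were also smaller than the 13.5% and 17.6% of 23619 single-gene probe sets, each tested on its own. Of 655 with several genes, 54 (8.24%) were higher and 112 (17.1%) lower.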

How the results depend on the processing

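The counts of genes higher (1992) and lower (2230) at 21 h stayed within 1.5 times of these values under most alternatives. Exceptions were hybridisation control scaling (122 higher), the 6 arrays alone (1068 and 1398), every probe set on its own (3199 and 4149) and an adjusted p under 0.01 (1242 higher). At least 2-fold counts (45 higher, 170 lower) were 15 and 338 under hybridisation control scaling and 75 and 305 with every probe set. Counts of genes with a more positive (216) or more negative (404) change than from 7 h to 14 h moved most: 1 and 244 under hybridisation control scaling, 124 and 238 without a filter, 338 and 672 with a 60th-percentile filter, 355 and 675 with a trended and robust variance, 25 and 84 at an adjusted p under 0.01. Leaving out 1 array gave 1620 to 2069 higher, 1892 to 2126 lower, 47 to 387 more positive and 80 to 647 more negative. Of 190 named genes, 143 kept direction and call under hybridisation control scaling and 174 with the 6 arrays alone. Klf1 turned to -0.042 under hybridisation control scaling and Xist to -0.056 without _x_at and _s_at probe sets. For these shifts the cause was not tested, beyond the fewer arrays or other thresholds themselves. No pairing by replicate number was evident between 14 h and 21 h arrays (correlation of deviations between same-numbered arrays -0.17, 0.06 and -0.15). With so few arrays per time, these correlations cannot exclude cultures or batches shared by replicate number. With the replicate number as a block, 1957 genes were higher and 2166 lower, with 176 and 323 for the comparison of intervals.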

Other observations

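Several gene groups outside the lists moved over the same 7 h; their genes were picked with the values in view. All 5 yippee-like genes, small zinc-binding proteins linked to quiescence, were higher: Ypel3 by 1.15, Ypel4 by 1.14, Ypel5 by 0.67, Ypel1 by 0.63 and Ypel2 by 0.59; under hybridisation control scaling all stayed positive and only Ypel3 and Ypel4 were called. Rragd, a Rag GTPase gene of nutrient sensing at the lysosome, read 10.40, 10.46 and 10.44 at 14 h and 11.64, 11.66 and 11.59 at 21 h (change 1.19, SE 0.062, adjusted p = 4.54e-09). Calcoco1, an autophagy receptor gene, changed by 1.11 and Tmcc2 by 1.04. Of the Polycomb methyltransferases, Ezh1 changed by 0.90 (SE 0.15, adjusted p = 0.00022) and Ezh2 by -0.07 without a call.

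Pvt1, the noncoding neighbour of Myc, read 7.14, 7.45 and 7.16 at 14 h and 5.25, 5.77 and 5.53 at 21 h (change -1.73, SE 0.13, adjusted p = 7.68e-08), the transcription factor gene Tfap4 changed by -1.67 (SE 0.094, adjusted p = 8.12e-09), and Srm, which makes spermidine, read 11.17, 11.27 and 11.33 at 14 h and 9.98, 9.95 and 10.05 at 21 h (change -1.26, SE 0.064, adjusted p = 3.83e-09). Among adhesion and cytoskeleton genes, Icam2 changed by -1.75, Vim (vimentin) by -1.48, Septin6 by -1.31, the non-erythroid beta spectrin gene Sptbn1 by -1.29 and Cd44 by -1.28. Dnmt3b, a de novo DNA methyltransferase gene, changed by -1.20, while the maintenance enzyme Dnmt1 was not called (0.05).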
